A study of Drosophila melanogaster with 2 samples.

Results

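Most toe peaks in adult male flies lie at promoters, but a sizeable group sits a short way inside genes. These near-start intronic peaks were taken from the authors' list of peaks reproducible between replicates. A peak was a member if its summit lay 501 to 2000 bp from the nearest annotated start site of any gene, inside a gene body and in no annotated exon. Of the 3469 reproducible peaks, 457 were members (13.2%, 95% Wilson interval 12.1 to 14.3%). Of the rest, 2289 were promoter peaks (summit at most 500 bp from a start site), 384 lay deeper in introns, 260 were intergenic and 79 lay in exons. Some members overlap each other, and the 457 merge into 435 separate regions, so members that overlap share bases and reads.

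Chromatin immunoprecipitation followed by sequencing was carried out on whole adult males of the strain toe-GFP, a stable transgenic Drosophila melanogaster line in which toe carries GFP at its C-terminus. Chromatin sheared by sonication was precipitated through the GFP tag. The series had 1 group with 2 biological replicates, numbered 2 and 3, and the age of the flies is given as unknown. The whole animal was used, so a peak cannot be assigned to a cell type. The labels name a control experiment, which is not analysed here, and do not say whether the insertion added a copy of the toe region. There was no second condition, and the comparisons below set the members beside other peaks of the same list and beside intron at the same distance from start sites that holds no reproducible peak.

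The gene toe (twin of eyegone) and its neighbour eyg encode Pax-family transcription factors, known from Drosophila for their roles in eye and thorax development. A Pax protein can contact DNA through a paired domain and through a homeodomain, and the homeodomain typically reads words with a TAAT core. First introns of fly genes often hold enhancers, and a peak at such a place can belong to the gene around it or to another gene. Summit positions are the authors', and coordinates are on dm6, counted from 1.

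A sequence feature that set the members apart from other intron was a 6-base core, ACAGTG, usually found to one side of the summit. The stretches printed here are those of the 8 highest members that hold the core 20 to 150 bp before the summit, read on the strand of the core, apart from members on a chromosome arm whose sequence is not shown. Each stretch runs from 10 bases before the core to 10 bases past the summit, and the capitals mark the core. The sequences are from the RefSeq copy of the dm6 assembly.
Trl, chr3L:14759389-14759544, plus strand: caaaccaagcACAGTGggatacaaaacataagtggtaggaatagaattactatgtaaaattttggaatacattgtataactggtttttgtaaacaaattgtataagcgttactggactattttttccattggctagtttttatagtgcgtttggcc
Lk6, chr3R:11761019-11761070, plus strand: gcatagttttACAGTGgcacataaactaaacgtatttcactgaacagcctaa
for, chr2L:3655714-3655816, plus strand: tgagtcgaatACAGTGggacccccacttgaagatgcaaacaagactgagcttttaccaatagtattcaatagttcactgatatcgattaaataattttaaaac
norpA, chrX:4324964-4325080, minus strand: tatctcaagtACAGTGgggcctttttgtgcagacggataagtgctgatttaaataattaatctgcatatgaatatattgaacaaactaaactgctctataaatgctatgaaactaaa
aru, chr2L:867413-867516, plus strand: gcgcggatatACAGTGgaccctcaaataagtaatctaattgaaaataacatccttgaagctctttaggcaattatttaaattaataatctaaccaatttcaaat
MYPT-75D, chr3L:18640724-18640784, minus strand: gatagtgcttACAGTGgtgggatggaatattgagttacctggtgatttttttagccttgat
Tob, chrX:16090303-16090398, plus strand: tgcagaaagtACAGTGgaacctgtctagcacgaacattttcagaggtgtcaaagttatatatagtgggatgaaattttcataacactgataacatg
Leash, chr3R:10886808-10886954, plus strand: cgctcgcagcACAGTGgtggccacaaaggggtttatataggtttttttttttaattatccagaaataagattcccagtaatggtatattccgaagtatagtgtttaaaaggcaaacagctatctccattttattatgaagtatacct
In these stretches the core lay between 28.5 bp (Lk6) and 132 bp (Trl) from the summit, and each stretch held 1 core.

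Several of the highest members had no core. The next stretches show 121 bp centred on the summit, on the plus strand, for the 4 highest such members outside the arm left out above. Capitals mark a forkhead site, TGTTTAC or its reverse complement GTAAACA, which was found only in the stretch of CG9663. No GAGAG or CTCTC was present in these 4 stretches.
CG11050, chr2L:6612661-6612781, plus strand: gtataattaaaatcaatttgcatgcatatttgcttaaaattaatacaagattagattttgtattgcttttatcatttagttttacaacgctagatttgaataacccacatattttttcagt
CG9663, chr2L:3302119-3302239, plus strand: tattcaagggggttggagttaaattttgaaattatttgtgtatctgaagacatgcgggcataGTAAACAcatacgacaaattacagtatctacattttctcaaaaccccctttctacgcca
CG32772, chrX:4910319-4910439, plus strand: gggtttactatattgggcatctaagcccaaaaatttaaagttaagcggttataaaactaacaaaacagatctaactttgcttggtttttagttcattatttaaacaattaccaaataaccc
simj, chr3L:10665711-10665831, plus strand: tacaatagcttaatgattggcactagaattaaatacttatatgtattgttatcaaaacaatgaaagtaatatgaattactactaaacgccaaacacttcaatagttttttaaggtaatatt
The homeodomain core TAATTA was not marked here, since members held it about as often as other intron (values with the motifs below).

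Members were weaker than promoter peaks as a group. The deposited signal of the members ran from 58.2 to 1620 with a median of 91.1 (95% interval of the median 85.9 to 94.8), in the authors' units, with a scale not given in the sources used here. Medians were 115 (112 to 119) for promoter peaks, 81.3 (78.8 to 85.3) for deep intronic peaks, 83.0 (79.7 to 89.2) for intergenic peaks and 102 over all peaks. As a group the members stood between promoter peaks and peaks farther from start sites. Of the 100 highest peaks of the list 11 were members, near their 13.2% share of all reproducible peaks, and 81 were promoter peaks. Of the members, 41.1% were in the upper 50% of the list, against 56.9% of promoter peaks and 32.0% of deep intronic peaks. A q-value under 0.05 was reached by 376 members (82.3%, 78.5 to 85.5%), against 86.8% of all reproducible peaks.

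Both replicates held nearly all members, but not always among their strongest regions. Each replicate list held 30000 regions, peaks and background together. A region of replicate 2 overlapped 454 members (99.3%, against 99.4% of all reproducible peaks). For replicate 3 it was 451 members (98.7%, against 98.5% of all peaks), so both shares were near the background. Among the 3469 strongest regions of replicate 2, an overlap was found for 354 members (77.5%, 73.4 to 81.1%), against 85.3% of all reproducible peaks. For the 3469 strongest of replicate 3 it was 370 members (81.0%, 77.1 to 84.3%), against 81.1% of all peaks. The share of members was thus below the background in replicate 2 and near it in replicate 3. Both sets of strongest regions were reached by 293 members (64.1%, 59.6 to 68.4%), against 70.3% of all reproducible peaks. Only that of replicate 2 was reached by 61 members and only that of replicate 3 by 77. Neither was reached by 26 members (5.69%, 3.91 to 8.21%), against 3.95% of all peaks.

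Across the 448 members found in both replicates, the log2 signals had a Pearson's r of 0.78 and a Spearman's rank correlation of 0.65. This is a description across peaks chosen for reproducibility in the same 2 libraries, and the value of a member in a replicate is that of the strongest region overlapping it, so that overlapping members can share one. Of the 20 highest members, 18 were among the 30 highest members of replicate 2 and all 20 among the 30 highest of replicate 3. One member of intermediate strength, in lola (190 in the reproducible list), had no overlapping region in replicate 2 and a signal of 73.4 in replicate 3.

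**Figure D1:**
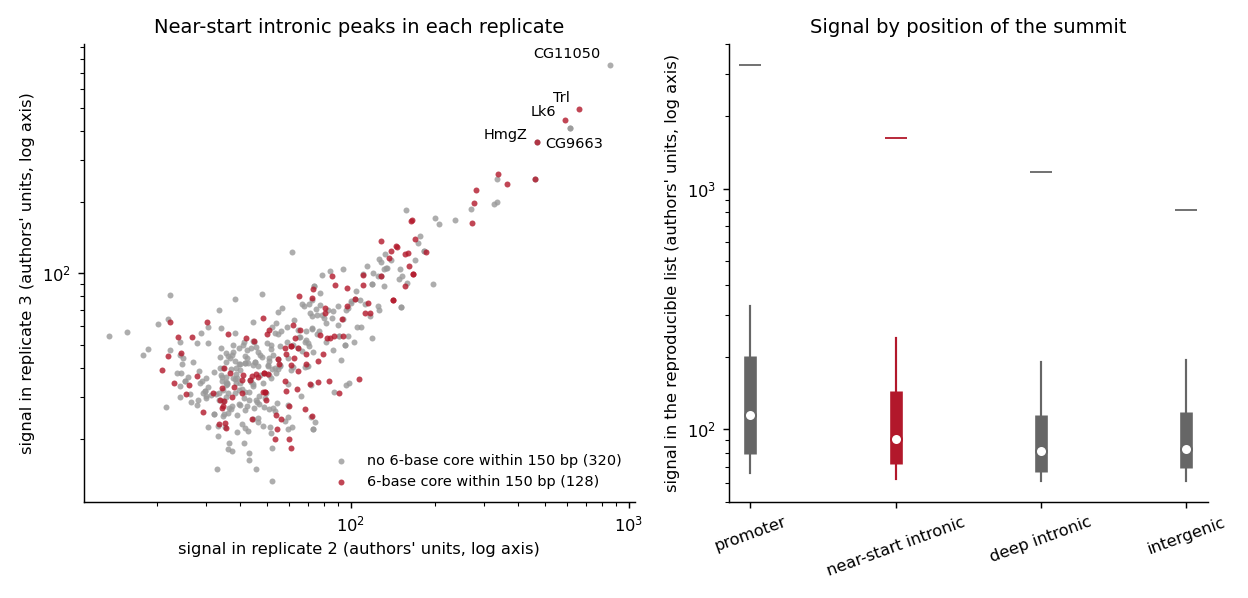
Left, each point is 1 of the 448 members found in both replicates, placed by its signal in replicate 2 (x) and replicate 3 (y) on log axes and coloured by whether the 6-base core lies within 150 bp of the summit; the 5 highest members are named and are high in both replicates. Right, signal in the reproducible list by position of the summit on a log axis, with the median (circle), the 25th to 75th percentile (thick bar), the 10th to 90th percentile (thin line) and the highest peak (dash); the median of the near-start intronic peaks, 91.1, lies between 115 at promoters and 81.3 in deep introns.

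The highest member lay in CG11050, 1034 bp from the nearest start site, and ranked 4 among all reproducible peaks. Its signal was 1620 in the reproducible list, 853 in replicate 2 and 759 in replicate 3, where it ranked 5 and 3. Signals of separate lists are not on 1 scale, so ranks were compared. Next came Trl, which encodes the GAGA factor, 1515 bp from a start site, with a signal of 1150 and ranked 9 in both replicates. A member in CG9663 (951 bp, 1038) ranked 13 in replicate 2 and 17 in replicate 3. The one in Lk6, a kinase gene of the MAP kinase pathway that acts on the translation factor eIF4E (981 bp, 1038), ranked 17 and 10. All 4 stood among the strongest regions of each replicate.

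Then followed the neighbours HmgZ and HmgD, genes of HMG-box chromatin proteins, whose shared member had a signal of 829 at 541 bp from a start site of HmgZ. It ranked 35 in replicate 2 and 24 in replicate 3. Adf1, a transcription factor gene, had a member of 721 (819 bp away), with ranks of 37 and 72. The member of for, the foraging gene for a cGMP-dependent protein kinase, had a signal of 602 (1147 bp) and ranks of 65 and 83. That of norpA, which encodes the phospholipase C of fly phototransduction, had a signal of 593 (1365 bp) and ranks of 81 and 55. In these 4 the ranks of the replicates stayed within the first 100 regions.

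The other members among the 20 highest ran from 592 down to 335. They lay at CG32772 (592), simj (533), which encodes a subunit of the NuRD complex, CG4496 (529) and KCNQ (521), a potassium channel gene whose peak was nearest to a start site of mlt. Below these stood aru (482), CG31612 (461), MYPT-75D (438), a myosin phosphatase regulatory subunit, and a peak in ush, a cofactor of GATA factors, that was nearest to the zinc finger gene cbt (423). The last 4 were Cyt-c-p (381), the gene of cytochrome c, Mhcl (370), a myosin heavy chain-like gene, the insulin receptor gene InR (345) and Tob (335). In replicate 2 InR ranked 443 and in replicate 3 150, the widest gap in rank among these 20. Of the 20, 9 held the 6-base core within 150 bp of the summit, as did 134 of all 457 members.

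Members were densest close to the lower limit of the rule. The density was 56.6 per megabase of such intron (95% exact Poisson interval 49.8 to 64.1, 250 members) at 501 to 1000 bp from a start site. It was 34.2 (28.5 to 40.6, 129 members) in the next 500 bp and 23.9 (18.9 to 29.9, 78 members) in the last 500 bp, up to 2000 bp. Beyond the members it continued downward, to 16.9 (14.7 to 19.2) between 2000 and 5000 bp and 5.55 (4.73 to 6.47) farther away. The interval of the class nearest to the start site overlapped none of the others, and those either side of 5000 bp did not overlap. Those of the other 2 classes within the rule did (28.5 and 29.9), and so did those either side of the rule's upper limit (18.9 and 19.2), where no step was seen. The median signal of the peaks in these classes was 94.7, 87.2, 84.1, 84.0 and 78.8 in the same order. Over all members the density was 39.9 per megabase.

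First introns held most members. Of the 457, 397 (86.9%, 83.5 to 89.7%) lay in the first intron of a transcript, against 64.5% of the intronic bases at the same distances. Per megabase there were 53.8 members in first introns (48.6 to 59.4) and 14.7 in other introns (11.3 to 19). The same order held in each distance class, as 70.7 against 25, 48.0 against 10.2 and 34.3 against 9.02. It was not particular to the members. Deep intronic peaks had 65.1% (60.2 to 69.7%) in first introns against 37.2% of bases there, or 15.9 against 5.04 per megabase. The shortest intron around a member had a median length of 4270 bp and a range from 64 to 73902 bp.

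**Figure D2:**
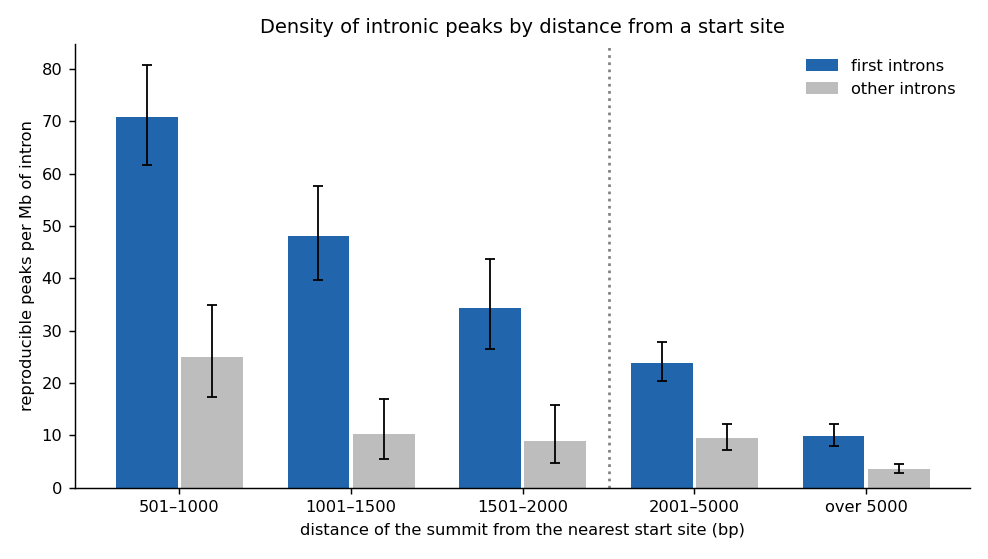
Reproducible intronic peaks per megabase of intron (y) by distance of the summit from the nearest start site (x), in first introns (blue) and other introns (grey); error bars are 95% exact Poisson intervals and the dotted line marks the upper limit of the rule. In first introns the density falls from 70.7 per megabase at 501 to 1000 bp to 9.86 beyond 5000 bp.

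The gene with the nearest start site had a promoter peak, at any of its start sites, for 242 members (53.0%, 48.4 to 57.5%). The distance between that peak and the member was not part of the count. The share was 40.1% (35.3 to 45.1%) for deep intronic peaks, a difference of 12.8 percentage points (95% Newcombe interval 6.09 to 19.4). Of the genes with such intron, 22.2% had a promoter peak, and such genes were nearest to 24.1% of the intronic bases at the rule's distances. The members' share fell to 32.6% when a promoter peak had to lie within 200 bp of the start site, and to 34.0% when only the upper 50% of the list by signal was used. In 412 members (90.2%) the nearest start site belonged to a gene around the peak, and in 429 (93.9%) to a protein-coding gene. The summit lay upstream of that start site in 162 members (35.4%, 31.2 to 39.9%), which in genes with several start sites places it between an earlier and a later one.

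Spacing to the next summit ran from 199 to 114888 bp with a median of 1792 bp. It was within 1000 bp for 136 members (29.8%) and over 5000 bp for 138 (30.2%), so groups of summits and isolated peaks were about equally common. Another reproducible peak overlapped 57 members (12.5%). The same shares were not computed over all reproducible peaks, so these counts show no trait particular to the members.

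The reproducible peaks are the 3469 regions with the highest signal in the pooled list of 30000 regions, so 11.6% of all pooled regions are in it. At the positions of the rule the pooled list held 3282 regions, of which 457 (13.9%, 12.8 to 15.2%) were reproducible. The share was 31.8% (30.7 to 32.9%) at promoters, 4.48% (4.06 to 4.94%) in deep introns and 3.32% (2.94 to 3.74%) in intergenic sequence. Positions near but not at a start site were thus slightly above the background of the list and well above the deeper ones. The members nearest to the limits of the rule were at Samuel (502 bp, signal 85.9) and crol (1996 bp, 72.1). Just outside lay peaks at wde (499 bp, 289) and norpA (2009 bp, 58.6).

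By chromosome, 95 members lay on 2L, 79 on 2R, 76 on 3L, 122 on 3R, 84 on X, 1 on 4 and 0 on Y. Per megabase of such intron this came to 45.9, 37.3, 33.0, 46.8, 38.2 and 7.73, in the same order up to chromosome 4. The single X chromosome of the males, with 18.4% of the members (15.1 to 22.2%), held 19.2% of such intron. At the tagged locus itself no member was found: the intronic peak of toe lay 5337 bp from the nearest start site (signal 84.1).

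A total of 417 genes hosted a member in an intron, 4.42% of the 9443 genes that have intron at the rule's distances. Of these, 350 hosted 1 member, 56 hosted 2, 8 hosted 3, 2 hosted 4 and 1 hosted 5. HmgZ hosted 5, with signals of 829, 148, 114, 84.4 and 81.9, and HmgD, which overlaps it, hosted the same peaks except that of 114. The other gene with 4 was osa, a subunit of the Brahma (SWI/SNF) remodelling complex, where all were weak (76.3, 65.3, 64.2 and 60). In Trl the other members had signals of 209 and 150, 1271 and 1067 bp from a start site.

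Further genes with 3 members included several transcription factors. CHES-1-like, of the forkhead family, had 157, 154 and 143, close to each other in signal. Mnt, a bHLH partner of Max, had 96.8, 85.9 and 64.8, and shn (schnurri), a zinc finger protein that acts with Mad in Dpp signalling, had 137, 97.9 and 88.3. Acsl, a long-chain acyl-CoA synthetase gene, had 175, 84.2 and 66.5. The remaining ones were Pino (131, 75 and 61.5), CG10543 (146, 115 and 74.5) and CG9837 (112, 91.6 and 60.1). In several of these genes summits stood about 200 bp apart, and such neighbouring summits were counted separately. At osa, adjacent summits lay 1183 and 978 bp from the nearest start site, which was that of lncRNA:CR46035.

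The gene lists used from here on were set with earlier results of these data known. Their shares and intervals describe the lists and are no test against the background. Of 19 genes in a list of BTB factors and other zinc finger factors, 8 hosted a member (42.1%, 23.1 to 63.7%). The share was 4.42% over all genes with such intron. Not all hosts in this list are BTB factors: crol, for one, encodes a zinc finger protein without a BTB domain. The highest peaks were those of Trl (1150), lola (190), psq (148), ttk (87.3), fru (75.2) and crol (72.1). Long introns give a gene more room for a member, and the genes of this list had a median of 3553 such bases against 383 over all genes. Per megabase the list held 149 members against 39.9 over all genes.

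Among 34 bHLH, bZIP and forkhead factor genes, 10 were hosts (29.4%, 16.8 to 46.2%, 150 members per megabase). They included kay (250), the fly Fos, SREBP (241), the activator of lipid synthesis genes, CHES-1-like (157), CrebB (156), the stress response factor cnc (104) and Mnt (96.8). Of 25 ecdysone response and nuclear receptor genes, 7 were hosts (28.0%, 14.3 to 47.6%, 68.7 per megabase). They were led by the coactivator tai (239), the ecdysone receptor gene EcR (193), Eip75B (135), Hnf4 (82.6), Eip74EF (73.9) and br (70.5). The EcR peak was nearest to a transfer RNA gene inside it and the br peak to Mur2B. The list of homeodomain and Pax factor genes, the class of toe itself, also holds some developmental factors of other classes. This list stood at the background by share, with 2 of 43 (4.65%, 1.28 to 15.5%). By density it was lower, at 16.5 per megabase from 2 members, against 39.9 over all genes. The 2 hosts were zfh1 (254) and Abd-B (68.6).

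Signalling genes were hosts in several pathways. Of 28 genes in the insulin and TOR list, which also holds genes of lipid synthesis and storage, 7 hosted a member (25%, 12.7 to 43.4%). The density of this mixed list was 189 members per megabase, the highest among the lists shown. The lipid genes among its hosts were SREBP (241, counted in both lists), the lipid droplet gene Lsd-2 (190) and the lipase gene bmm (117, 2 members). The other hosts were the receptor gene InR (345), ImpL2 (241), a secreted antagonist of insulin-like peptides, the kinase gene Akt (135) and PRAS40. Receptor tyrosine kinase, Ras and MAP kinase genes had 9 of 35 (25.7%, 14.2 to 42.1%, 98.6 per megabase), with Lk6 (1038), the ligand gene Krn (93.0), Raf (77.5), Tak1 (73.5), the antagonist gene sty (71.9) and the ligand gene spi (63.9).

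In the list of Notch, Wingless, Hedgehog and Dpp genes, 5 of 36 were hosts (13.9%, 6.08 to 28.7%, 60.5 per megabase). All 5 act in Dpp signalling: shn (137), the receptor genes put (125) and tkv (92.0), the Smad gene Mad (75.1) and the ligand gene dpp (59.7). JAK/STAT genes had 2 of 12 (16.7%, 4.70 to 44.8%, 75.5 per megabase), the transcription factor gene Stat92E (127) and the feedback inhibitor gene Socs36E (111).

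RNA-binding genes were above the background by share and close to it by density. Of 39 RNA-binding and splicing regulators, 7 were hosts (17.9%, 8.98 to 32.7%, 43.1 per megabase), among them Rbp9 (248), brat (244), elav (219), shep (186), Sxl (173) and Syp (159). Circadian clock genes had 3 of 15 (20%, 7.05 to 45.2%, 62.1 per megabase), the transcription factor genes vri (92.4) and Pdp1 (78.3) and the light sensor gene cry (64.2).

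The listed ion channel and synaptic genes had few members for their amount of intron. In 61 such genes with 258 kb of it there was 1 host, KCNQ (1.64%, 0.290 to 8.72%, which includes the 4.42% of all genes). The density was 3.87 members per megabase, against 39.9 over all genes. Some ion channel genes outside the list did host members. Chromatin regulator and insulator genes had 3 of 52 (5.77%, 1.98 to 15.6%), Trl, ph-p (200) and osa. Their density was 142 per megabase, from 8 members in 56.2 kb of such intron.

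Of the 25 muscle markers with such intron 1 was a host (Argk1, 121), with a 95% interval of the share from 0.710 to 19.5%. Of the 21 neuron markers 1 was a host (elav, 219), with 0.846 to 22.7%. Of the 11 glia markers 2 were hosts (Gs2, 118, and nrv2, 78.4), with 5.14 to 47.7%. The muscle and neuron intervals included the 4.42% of all genes. The glia interval lay above it but rests on 2 hosts. Densities were 17.2, 17.5 and 73.7 members per megabase in this order, against 39.9 over all genes. None of 14 testis markers, 7 midgut markers, 26 cytoplasmic and 22 mitochondrial ribosomal protein genes hosted a member. The upper 95% limits of these shares were 21.5, 35.4, 12.9 and 14.9%, and the ribosomal lists hold only 5.33 and 8.81 kb of such intron, so little can be read from these zeros. The lists share genes, and their members were counted once in each.

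**Figure D3:**
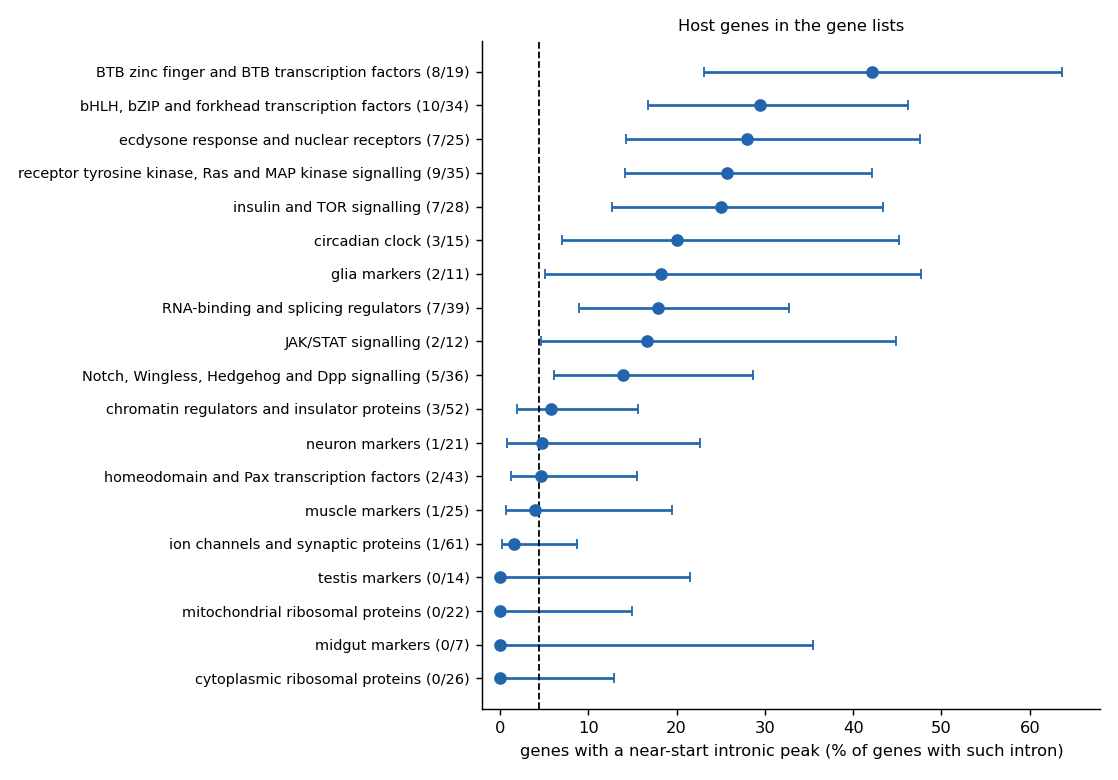
Share of the genes of each list shown that host a near-start intronic peak, among genes with intron at the rule's distances (x, percent), with the number of hosts and of genes in parentheses; error bars are 95% Wilson intervals and the dashed line is the 4.42% over all such genes. The lists were set with earlier results of these data known, so the shares are a description. The list labelled BTB, which also holds other zinc finger factors, lies highest at 42.1%, and the listed ion channel and synaptic genes lie at 1.64%.

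Several words were less frequent in the members than in promoter peaks. Windows reaching 100 bp either side of the summit were searched on both strands for 20 motifs, and compared with all 55583 non-overlapping windows of that length centred on intron at the rule's distances and free of reproducible peaks, called peak-free windows here. The share of G and C was 37.8% in member windows and 39.7% in peak-free windows, and soft-masked repeats made up 19.1 and 18.3%. The DNA replication-related element TATCGATA was found in 1 member (0.219%, 0.0386 to 1.23%), against 7.25% of promoter peaks and 0.432% of peak-free windows. Core promoter motif 1, GGTCACACT, was in 0 members (0%, which with the Wilson interval allows up to 0.834%) and in 3.06% of promoter peaks. The BEAF-32 core CGATA, which lies within TATCGATA, was in 23.2% of members, 40.8% of promoter peaks and 21.1% of peak-free windows, and the 7-mer AGTGTTG in 3.06, 10 and 2.25%. For each of these words the share in peak-free windows lay within the members' interval.

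A small number of words were more frequent in members than in peak-free windows. The core ACAGTG was in 97 members (21.2%, 17.7 to 25.2%), 7.62% of peak-free windows and 17.2% of all reproducible peaks. With a following G, as ACAGTGG, it was in 50 members (10.9%, 8.40 to 14.1%), 2.48% of peak-free windows and 7.38% of all peaks. Of the other classes, deep intronic peaks had the core at 20.8%, intergenic peaks at 16.5% and promoter peaks at 15.9%. The members exceeded promoter peaks by 5.28 percentage points (1.45 to 9.51), whereas the differences from deep intronic (0.392, -5.18 to 5.87) and intergenic peaks (4.69, -1.41 to 10.3) had intervals that included 0. Promoter peaks were thus the one class from which the members differed by more than the interval.

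The forkhead site TGTTTAC was in 46 members (10.1%, 7.63 to 13.2%), 5.14% of peak-free windows and 7.38% of all peaks. The repeat GAGAGAG, read by the GAGA factor, was in 31 members (6.78%, 4.82 to 9.47%), 2.96% of peak-free windows and 5.19% of all peaks. The forkhead site was denser within 100 bp of the summit, at 0.656 per kb within 25 bp (15 sites), 0.613 at 25 to 50 bp (14), 0.350 at 50 to 75 bp (8) and 0.525 at 75 to 100 bp (12), than at 200 to 300 bp (0.274) or 300 to 500 bp (0.252). The shorter GAGAG ran the other way, with 1.58 per kb within 25 bp, 4.68 at 150 to 200 bp and 3.42 at 300 to 500 bp, so it was thinnest at the summit. The GATA factor site GATAAG was in 13.6% of members (10.7 to 17.0%) and 10.4% of peak-free windows.

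Words linked to homeodomains and paired domains were as frequent as in peak-free windows, within the intervals. The homeodomain core TAATTA was in 74 members (16.2%, 13.1 to 19.8%) and 15.3% of peak-free windows. The paired domain core GTCACGC was in 2 members (0.438%, 0.120 to 1.58%) and 0.984% of peak-free windows. These letters are a search for fixed words, and nothing follows from them about what the protein reads. Of the other 10 motifs, GAGAG (26.5% of members, 22.6 to 30.7%, against 20.7% of peak-free windows) and TATAAA (30%, 26 to 34.3%, against 25.5%) had intervals above the peak-free share. The E-boxes CAGCTG (8.32 against 7.51%) and CACGTG (1.09 against 2.32%), the STAT site TTCNNNGAA (7.00 against 6.68%) and the Zelda site CAGGTAG (0.656 against 1.01%) had intervals that included it. So did the AP-1 site TGANTCA (5.03 against 5.47%), the CREB site TGACGTCA (0.219 against 0.398%), the nuclear receptor half-site AGGTCA (4.16 against 5.42%) and CACACACA (5.69 against 4.86%).

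**Figure D4:**
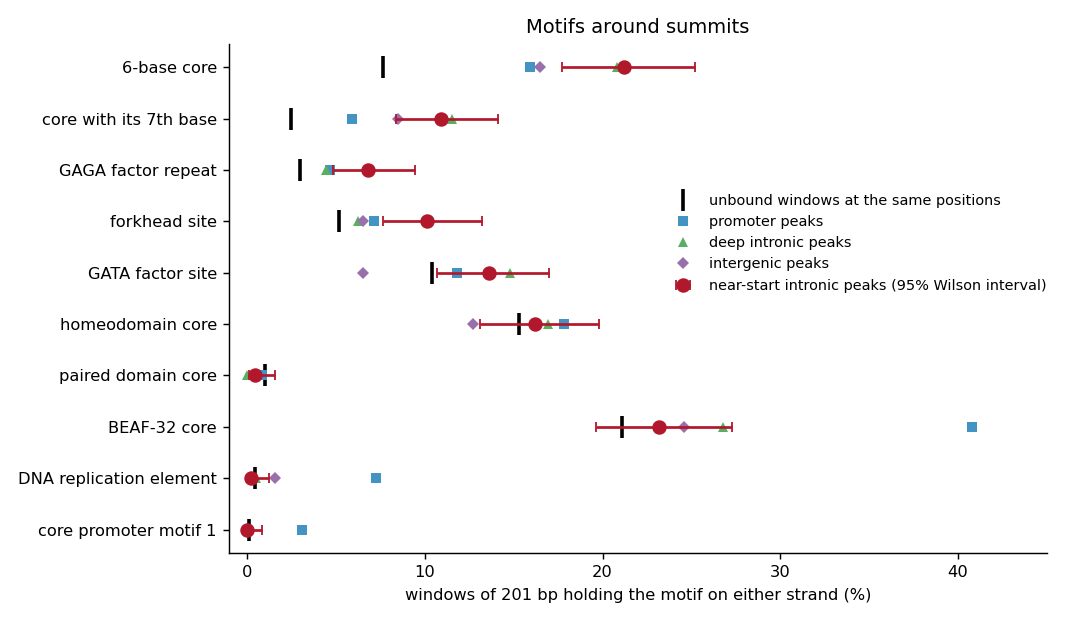
Share of summit windows (reach 100 bp to each side) holding a motif on either strand (x, percent) for near-start intronic peaks (red, with 95% Wilson intervals), windows at the same positions free of reproducible peaks (black bars), promoter, deep intronic and intergenic peaks. The 6-base core is in 21.2% of members and 7.62% of the peak-free windows. The DNA replication element, core promoter motif 1 and the BEAF-32 core are each most frequent in promoter peaks (7.25, 3.06 and 40.8%).

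Of all 8192 7-mers, those found in at least 20 members were ranked by the ratio of member share to peak-free share. The highest were pieces of 1 longer word. CACTGTA (10.1% of members against 2.03%), ACTGTAC (7.22 against 1.52%), ACAGTGG (10.9 against 2.48%), AGTACAG (5.03 against 1.38%), ACTGTGC (7.88 against 2.21%) and CACAGTG (7.66 against 2.26%) overlap the core on one strand or the other. They were chosen by these values, so the values carry no test. Ranked by difference in share, without that minimum, the list was led by AAAACAA (24.7 against 16.3%). It held several words made of A and T only, such as TAAATAA (20.8 against 13.9%). At the low end TGGCCAA was in 1.75% of members and 6.41% of peak-free windows.

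The core was more frequent in the stronger members. It was in 36% of the windows of the 50 highest members (24.1 to 49.9%), in 24.0% of the next 100 (16.7 to 33.2%), in 18.7% of the next 150 (13.2 to 25.7%) and in 17.2% of the last 157 (12.1 to 23.9%). The intervals of neighbouring classes overlap, and those of the first and the last class do not (24.1 against 23.9%). No such order was seen for the forkhead site, with 6.00, 10, 11.3 and 10.2%.

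The core lay on one side of the summit. This pattern was noticed in these data and is given as a description. Read along the strand of the core, its centre lay 5′ of the summit in 144 of 183 occurrences within 150 bp (78.7%, exact 95% interval 72.0 to 84.4%), at a median of 84.0 bp, and 3′ in 39. The 183 occurrences came from 134 members, and neighbouring members can count the same core more than once. The exact intervals treat occurrences as independent, so they may be too narrow. In peak-free windows, with the window centre in place of the summit, 50.4% lay 5′ (49.2 to 51.6%, 6810 occurrences). Deep intronic peaks had 79.1% (71.8 to 85.2%), intergenic peaks 70.5% (57.4 to 81.5%) and promoter peaks 63.0% (59 to 66.7%). The skew was present in peaks of all 4 positions, and the intervals of members and promoter peaks did not overlap.

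Each replicate alone gave the same side. When the rule was applied to the 3469 strongest regions of replicate 2, with that replicate's own summits, 418 regions qualified and 73.3% of 172 cores lay 5′ (66.0 to 79.7%). In replicate 3, 449 regions qualified and the share was 74.2% of 155 cores (66.6 to 80.9%). The occurrences were most frequent 80 to 100 bp before the summit, with 29 cores or 6.35 per 100 members in these 20 bp, against 7 cores in the last 20 bp before the summit and 8 cores at 80 to 100 bp after it. Of the 183 occurrences, 1 was soft-masked as a repeat (0.546%), against 4.08% in peak-free windows. Within 150 bp, 92 members had 1 core, 36 had 2, 5 had 3, 1 had 4 and 323 had 0.

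The core's orientation was unrelated in count to that of the gene: of 137 cores 20 to 150 bp 5′ of the summit, 63 (46.0%, 37.9 to 54.3%) lay on the strand of the host gene. The bases around those cores were also uneven. Just before the core stood C or T in 81.8%, and G stood before that base in 47.4%. Just after the core stood G in 56.2%. In member windows as a whole, G made up 18.8% and C and T 19 and 31.0%. The 150 such cores of deep intronic and intergenic peaks, which share no peak with the members, had 80.7% C or T, 44.0% G and 54.0% G at these places, so the extended word was alike in both sets.

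**Figure D5:**
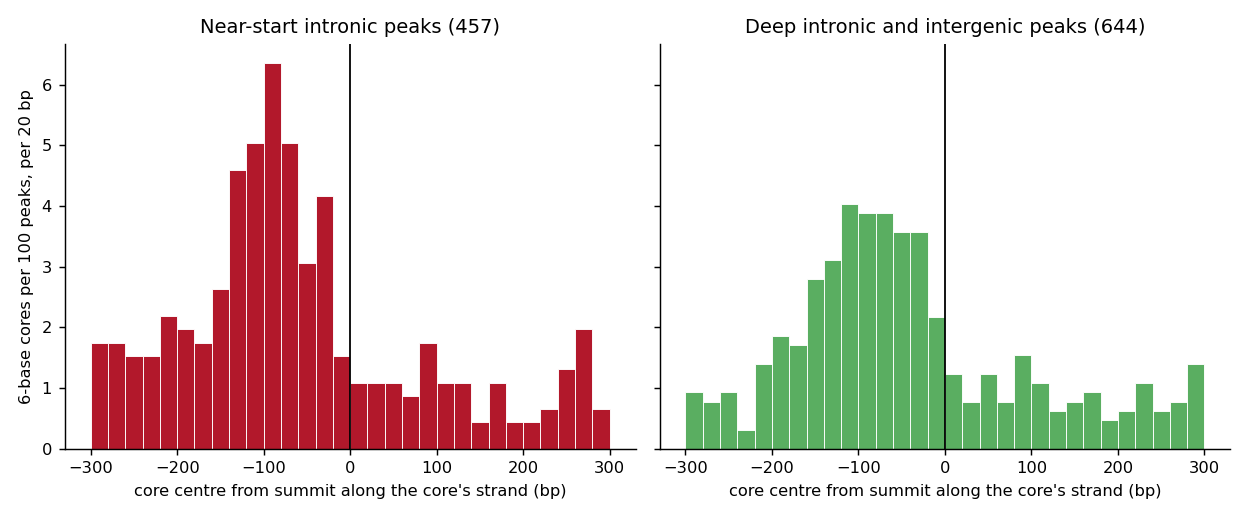
Number of 6-base cores per 100 peaks in bins of 20 bp (y) by the distance of the core's centre from the summit along the core's own strand (x, bp; negative is 5′ of the summit), for the 457 members (left) and the 644 deep intronic and intergenic peaks (right). In both panels the cores gather on the 5′ side, most of them within 150 bp of the summit.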

How the data were processed

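Binding was measured by chromatin immunoprecipitation and sequencing in 2 replicates of 1 group. Of the deposited peak lists, the 4 on dm6 were used (each replicate, pooled, reproducible), and 4 on dm3 were not. Per the files' notes, regions were called against a control and the reproducible list was derived by the irreproducible discovery rate. The aligner, caller and versions were not given in the sources used here. Each deposited signal is the authors' value per peak, used only to describe, rank or filter peaks. The deposited −log10 q-value served only to count q-values under 0.05. That column follows the usual layout, as the files carry no header. Read depth is unknown, so intervals cover the counting of peaks, genes, cores or windows only.

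Start sites are the transcript starts of 18277 genes in Ensembl release 115 (BDGP 6.54), transposable elements left out. Sequence is RefSeq's copy of that assembly. Background intron and peak-free windows were enumerated in full. No test was run, since there was 1 group and peaks are not replicates. Shares have 95% Wilson intervals, differences Newcombe intervals, densities exact Poisson intervals and core sides exact binomial intervals, none adjusted for the number of motifs or lists. The interval of a median comes from order statistics. The 20 motifs and 20 gene lists were set with earlier results of these data known, as were the members. The 6-base core and its side were chosen after seeing the data. Named genes are those of the 20 highest members, hosts of 3 or more members, up to 6 members per list (1 list is not reported here) and the peaks at the limits. Python 3.11.15, numpy 2.4.6 and scipy 1.17.1 were used, and the counting functions were tested on simulated data. Alternatives were other distance limits, start sites, exons, peak sets, windows and single replicates.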

Additional observations from a re-analysis of the deposited data

How the results depend on the processing

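Of 144 values under alternative settings, 108 stayed close to the main value (within 1.5 times it for the number of members, within its 95% interval for the others) and 36 did not. The cause was not tested unless the setting itself changes the number of peaks or bases. With members from above 200 bp there were 696 members, 49.0 per megabase and 69.1% near a gene with a promoter peak. From above 1000 bp there were 207, 29.4 per megabase and a median signal of 85.9. An upper limit of 1000 bp gave 250 members and 56.6 per megabase, and one of 5000 bp gave 679 members (within 1.5 times), 27.6 per megabase and 82.2% in first introns. Peaks with a q-value under 0.05 gave 32.8 per megabase, a median signal of 102, and 87.0 and 87.8% among the strongest regions of replicates 2 and 3. The upper 50% of the list gave 188 members, 16.4 per megabase, 34.0% near a gene with a promoter peak, a median of 157, shares of 97.3 and 98.9% in the replicates, 15.4% with ACAGTGG and 27.7% with the core. A promoter distance of 200 bp lowered the share with a promoter peak to 32.6%, with the background shares not recomputed. Summits within 100 bp gave 73.1 and 72.4% in the replicates. Windows of 50 and 200 bp either side held ACAGTGG in 4.16 and 17.1% and the core in 9.19 and 31.9%, against 1.21, 4.83, 3.77 and 14.5% of peak-free windows of those widths. Peak-free windows with GC between the 10th and 90th percentile of the members held them, at 100 bp either side, in 2.46 and 7.69%. With single replicates, members numbered 418 to 449, the share with a promoter peak 46.9 to 53.5%, and the share overlapping the other replicate's strongest regions 66.8% for replicate 2 and 73.2% for replicate 3. The core's 5′ side held 73.3 to 83.2% of cores throughout. No paired analysis was possible because there was 1 group. RefSeq start sites put 1 member outside the limits.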
